A study of Mus musculus with 16 samples.

Results

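Cd200 and Cd86 encode immune regulatory ligands on the cell surface that act in opposite directions, and their RNA levels were followed in macrophages grown from the bone marrow of aged C57BL/6 mice. CD200 is an inhibitory glycoprotein: its receptor CD200R1, which sits mainly on myeloid cells, recruits the adaptors DOK2 and DOK1 and dampens activation of the cell that carries it. CD86 is a costimulatory protein of the B7 family, displayed by macrophages, dendritic cells and B cells, which supplies T cells with an activating signal through CD28 and is also bound by the inhibitory receptor CTLA4. CD200 is better known from B cells, some T cells, endothelium and neurons than from resting macrophages, and in the mouse it is also known to appear on macrophages that fuse into multinucleated cells.

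The members were the 2 rows of the deposited comparison table with these gene names, out of 3071 genes listed there and 17130 that the authors tested. The series holds 16 libraries of RNA. Of these, 8 are beta-glucan libraries, numbered 5, 6, 7, 8, 9, 10, 12 and 13, and 8 are control libraries, numbered 2, 3, 5, 7, 9, 10, 12 and 13. Macrophages were grown from bone marrow for 7 days with 10 ng/mL of the growth factor M-CSF, exposed for 24 hours to 10 µg/mL of beta-glucan from the cell wall of Candida albicans or to PBS, and rested for 7 days before RNA was taken. The sources used here do not give age in months, sex or the number of mice. Nor do the labels tie each library to its own mouse or culture, and p-values therefore measure only how much these libraries vary, which may be technical.

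Both genes were chosen by the authors' test of beta-glucan against control, in which each had an adjusted p under 0.05. Their levels in the 2 groups are therefore given as a description, with no test. Normalized counts are read counts divided by a size factor per library. FPKM, used wherever the 2 genes are set against each other, also divides by gene length. Each library had 4382665 to 5600727 reads on listed genes, out of an effective library of 15492864 to 20738976 reads. Controls 2 and 3 and controls 12 and 13 lay toward opposite ends of the control group for both genes, and values are given with and without them.

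Cd200 RNA (ENSMUSG00000022661, minus strand of chromosome 16, 45382135 to 45409053, mm10) was high in every beta-glucan library and low in every control. The normalized counts with beta-glucan were 435 in library 5, 482 in library 6, 576 in library 7, 433 in library 8, 413 in library 9, 476 in library 10, 512 in library 12 and 395 in library 13. In control they were 9.26 in library 2, 42.7 in library 3, 63.3 in library 5, 22.7 in library 7, 62.5 in library 9, 133 in library 10, 161 in library 12 and 169 in library 13. The groups did not overlap, and the lowest beta-glucan library had 2.34 times the highest control. Among all listed genes 7.52% had groups that did not overlap, a share that the listing itself raises, so nothing is read from this. The mean was 465 ± 59.2 with beta-glucan and 82.9 ± 62.6 in control (SD, n = 8 each), a ratio of 5.61. The fitted log2 fold change, beta-glucan over control, was 2.48 ± 0.39 (SE), and by the authors' deposited table Cd200 had the 3rd largest of the 1079 listed rises.

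Cd86 RNA (ENSMUSG00000022901, minus strand of chromosome 16, 36603869 to 36666081, mm10) was lower with beta-glucan on average, by a smaller factor and with overlapping groups. The normalized counts with beta-glucan were 237 in library 5, 371 in library 6, 396 in library 7, 317 in library 8, 251 in library 9, 296 in library 10, 183 in library 12 and 158 in library 13. In control they were 702 in library 2, 633 in library 3, 439 in library 5, 591 in library 7, 424 in library 9, 529 in library 10, 261 in library 12 and 341 in library 13. In both groups libraries 12 and 13 had the lowest Cd86, and 6 of the 8 controls lay above every beta-glucan library. The other 2 controls, 12 and 13, fell within the beta-glucan range. The mean was 276 ± 84.7 with beta-glucan and 489.9 ± 151 in control (SD, n = 8 each), a ratio of 0.564. The fitted log2 fold change was -0.83 ± 0.21 (SE), and 44.9% of the 1992 listed falls were at least as large by the authors' deposited table.

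**Figure D1:**
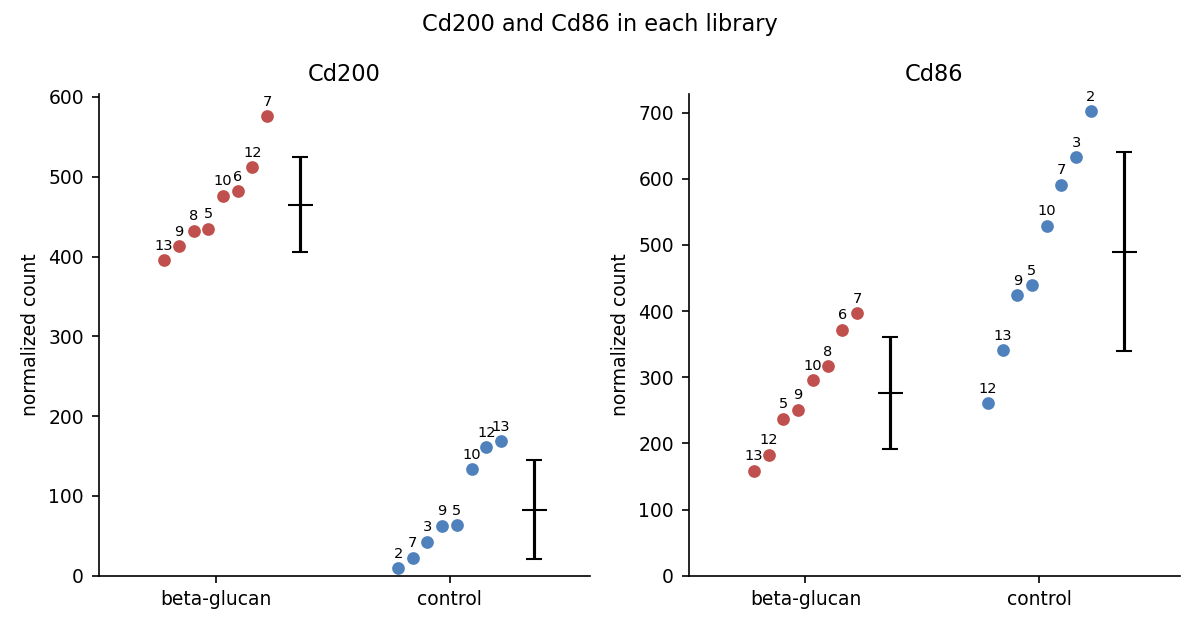
Normalized counts of Cd200 (left) and Cd86 (right) in each of the 8 beta-glucan and 8 control libraries. Points carry the library number and are sorted by value within a group, and the black marks are the mean with its SD. Cd200 lies between 395 and 576 with beta-glucan and between 9.26 and 169 in control, while the Cd86 groups overlap through controls 12 and 13.

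Bulk RNA cannot tell fewer cells that carry a transcript from less of it in each cell, and this holds for both genes and for all values below. The controls that stood apart moved the size of the difference without turning it. Without controls 12 and 13 the control mean of Cd200 was 55.6 ± 43.6 and that of Cd86 was 553 ± 110 (SD, n = 6), and the log2 fold changes were 3.07 for Cd200 and -1.0 for Cd86. Without controls 2 and 3 the control mean of Cd200 was 102 ± 60.4 and that of Cd86 was 431 ± 120 (SD, n = 6), with log2 fold changes of 2.19 and -0.64.

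The deposited gene coordinates equal those of GENCODE M21 for both genes, and no other gene of that annotation overlaps either, so no antisense or nested gene of that annotation shares their reads. GENCODE M21 gives Cd200 11 transcripts, 2 of them protein coding, and Cd86 4 transcripts, 1 of them protein coding. Counts per gene do not separate these. The lower coordinates of the 2 genes lie 8.78 Mb apart on chromosome 16.

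The promoter of Cd200 is shown because this gene holds the larger difference. The 250 bases before its start (RefSeq, mm10, chr16:45409054-45409303, minus strand, 5′ to 3′) read as follows, with matches to the searched motifs in capitals:
Cd200: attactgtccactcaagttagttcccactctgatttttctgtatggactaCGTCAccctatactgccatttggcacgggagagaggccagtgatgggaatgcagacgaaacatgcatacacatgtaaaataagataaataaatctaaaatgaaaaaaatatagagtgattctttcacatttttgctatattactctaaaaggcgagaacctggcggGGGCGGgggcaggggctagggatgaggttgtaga
The motifs were searched on both strands. The first capitals are a match to the half-site of the cyclic AMP response element (TGACG) on the opposite strand, which 17.8% of 32851 promoters of this length hold. The second are a GC box (GGGCGG), found in 32.7% of promoters, and the matches do not overlap. No match was found to AP-1 (TGANTCA, in 6.75% of promoters), to C/EBP (TTNNGNAA, 36.8%), to the PU.1 core (GAGGAA, 23.3%), to NF-kappaB (GGANTTNCC, 3.15%) or to the TATA box (TATAAA, 12.4%), which says only that these letters are not in this window. The window was 42.4% G and C, against a median of 52.4% over all promoters.

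Set against each other per gene length, the costimulatory gene was the more abundant of the pair in every control and the inhibitory gene in every beta-glucan library. Cd200 averaged 7.81 ± 0.993 FPKM with beta-glucan and 1.39 ± 1.05 FPKM in control, and Cd86 averaged 4.21 ± 1.29 FPKM with beta-glucan and 7.46 ± 2.29 FPKM in control (SD, n = 8 each). The ratio of Cd200 FPKM to Cd86 FPKM was above 1 in 8 of 8 beta-glucan libraries, with a lowest value of 1.43, a median of 1.79 and a highest of 3.09. It was above 1 in 0 of 8 controls, with a lowest value of 0.0146, a median of 0.161 and a highest of 0.681. The highest ratios stood in libraries 12 and 13 in both groups. On the log2 scale the mean ratio was 0.95 ± 0.40 with beta-glucan and -2.87 ± 1.87 in control (SD, n = 8 each), a difference of 3.82. This difference follows from the choice of the 2 genes and is not tested.

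**Figure D2:**
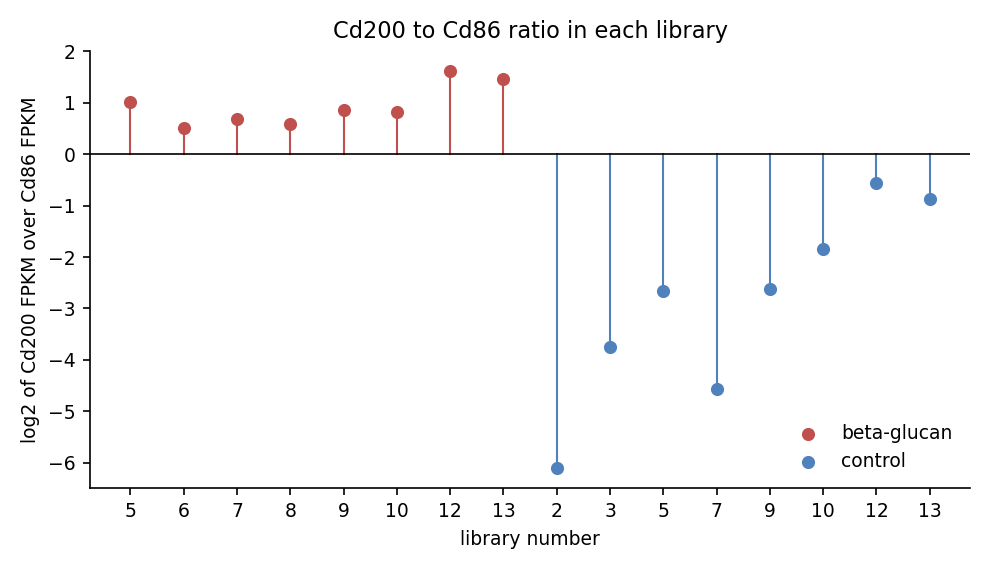
Log2 of the ratio of Cd200 FPKM to Cd86 FPKM in each library, with the 8 beta-glucan libraries on the left and the 8 controls on the right. The line at 0 marks equal levels per gene length. Beta-glucan libraries lie between 0.52 and 1.63, controls between -6.10 and -0.55.

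In proportion to its level, Cd200 differed less between beta-glucan libraries than between controls. In normalized counts the SD was nearly the same, 59.2 with beta-glucan and 62.6 in control, on means of 465 with beta-glucan and 82.9 in control. The SD of the log2 level (log2 of the normalized count plus 1) of Cd200 was 0.18 with beta-glucan and 1.42 in control. Over the 2378 listed genes with a mean normalized count of at least 50, the median SD was 0.21 with beta-glucan and 0.30 in control. Only 7 of these genes varied more between controls than Cd200, while with beta-glucan it lay below the middle, with 36.4% of the genes varying less. Its control values rest on 8 to 195 reads, against 375 to 555 reads with beta-glucan. Without control 2, the library with 8 reads, the control SD was 1.06. For Cd86 the spread was 0.47 with beta-glucan and 0.48 in control, a similar size in both groups and above 89.7% of the genes with beta-glucan and 83.6% in control. No test was made of the difference in spread.

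**Figure D3:**
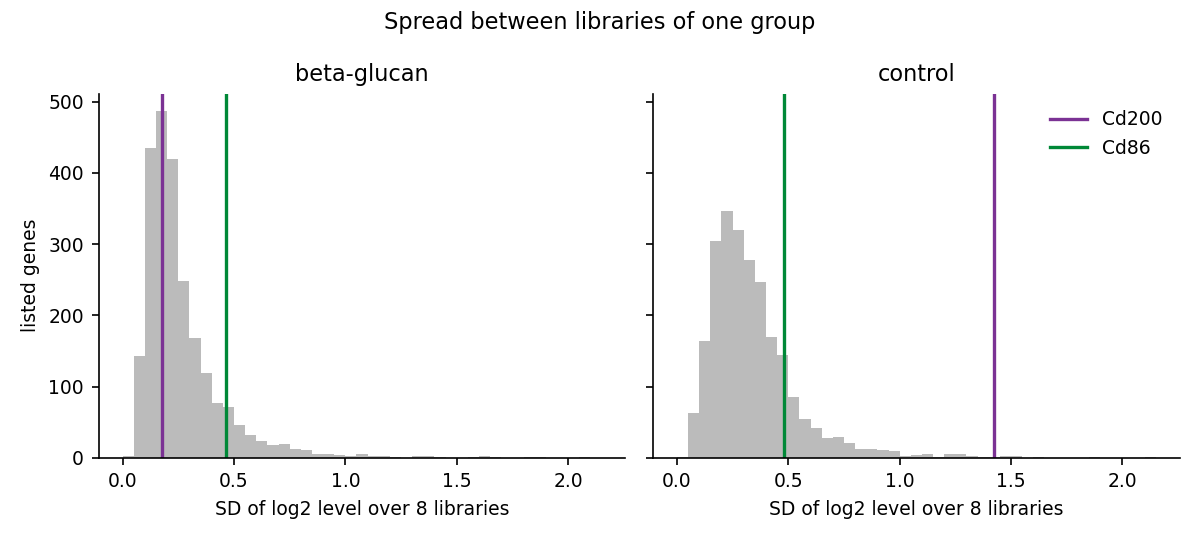
SD of the log2 level over the 8 libraries of a group (horizontal) for 2378 listed genes (grey bars, number of genes), with beta-glucan on the left and control on the right. Lines mark Cd200, at 0.18 and 1.42, and Cd86, at 0.47 and 0.48.

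Within the controls, libraries with more Cd200 had less Cd86. This relation was not used to choose the genes, but genes and tests were chosen with earlier results of these data known. For Cd200 and Cd86 over the 8 controls, Pearson's r of the log2 levels was -0.80 (exact permutation test, two-sided, p = 0.0168, adjusted over 2 relations 0.0335) and Spearman's rho was -0.86 (exact permutation p = 0.0107, adjusted 0.0214). Without control 2 alone r was -0.74 (n = 7, exact permutation p = 0.0556). Without controls 2 and 7, the pair farthest from the median of Cd200, r was -0.70 (n = 6, exact permutation p = 0.136), and without controls 12 and 13 it was -0.69 (n = 6, exact permutation p = 0.129). The call was thus lost in each of these, where fewer libraries also make the threshold harder to reach. Within beta-glucan r was 0.53 (n = 8, exact permutation p = 0.174, adjusted 0.174) and rho 0.52 (exact permutation p = 0.197, adjusted 0.197), and no relation passed the threshold. Without beta-glucan library 12 alone r was 0.82 (n = 7, exact permutation p = 0.0272), while without libraries 7 and 13 it was -0.18 (n = 6, exact permutation p = 0.765). Whether the groups differ in this relation was not tested. The relation was not particular to Cd86: within controls r with Cd200 was -0.90 for Lgals8 and -0.88 for Mbtd1. The share of listed genes with so strong an r was not computed.

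**Figure D4:**
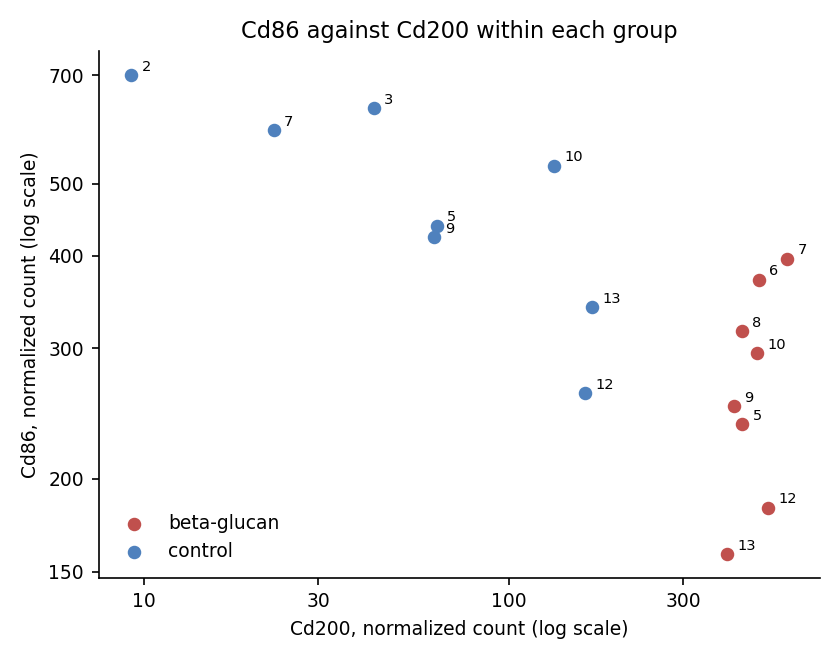
Cd86 (vertical) against Cd200 (horizontal), both as normalized counts on log scales, with 1 point per library and its number. Beta-glucan libraries form a narrow column between 395 and 576 Cd200 counts, while controls run from high Cd86 and low Cd200 (control 2, 702 and 9.26) to low Cd86 and higher Cd200 (control 12, 261 and 161).

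Around the pair, 8 lists with 85 genes in all were examined, covering receptors, other B7 ligands, other costimulators, inhibitory proteins of myeloid cells, CD86 turnover, MHC class II and macrophage fusion. The authors listed 10 of these genes higher and 11 lower, where 6.30% of all tested genes were listed higher and 11.6% lower. In edgeR's quasi-likelihood test, with Benjamini-Hochberg adjustment over 17130 genes, 7 rose (8.24% of the 85, against 4.14% of all tested genes) and 8 fell (9.41%, against 6.85%). Both the 10 listed higher and the 7 that rose include 4 genes of the macrophage fusion list. That list was drawn up with earlier results for Src and Atp6v0d2 in these data known. The share of rises is thus no independent evidence that the lists rose more than other genes. By the authors' deposited table the 21 listed members had a median of -0.36 in log2 fold change, against -0.47 over all listed genes. Vsig4 and H2-Ob did not pass the filter on low counts and were not tested in this fit. Both were called lower when no filter was used. Genes that the table does not list may have been unchanged or untested, and their values are not analysed here.

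On the receptor side, neither Cd200r1 nor its relatives Cd200r2, Cd200r3 and Cd200r4 were among the listed genes, and 2 of 9 genes of the CD200 receptor list were. Dok1, an adaptor that binds phosphorylated receptors and damps Ras signalling, rose: it had 1217 to 1840 normalized counts with beta-glucan (median 1500.1) and 931 to 1682 in control (median 1044), a log2 fold change of 0.38 ± 0.12 (SE, edgeR adjusted p = 0.0481). Inpp5d, the inositol phosphatase SHIP1, fell, with 5005 to 6462 normalized counts with beta-glucan (median 6134) and 4960.1 to 10630.1 in control (median 9296), a log2 fold change of -0.53 ± 0.14 (edgeR adjusted p = 0.0181). The groups overlapped in both genes. Of the 5 receptors that bind B7 ligands, only Treml2, a receptor reported to bind B7-H3, was listed. It was scarce and fell without overlap, at 14.3 to 40.0 normalized counts with beta-glucan (median 27.8) and 47.6 to 77.0 in control (median 66.4), a log2 fold change of -1.20 ± 0.22 (edgeR adjusted p = 0.00286). Cd28 and Ctla4, the receptors of CD86, were not listed.

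Among the 7 other B7 ligands, 1 rose and 1 fell in edgeR, where 4.14% of all tested genes rose and 6.85% fell. Cd274, which encodes the inhibitory ligand PD-L1, rose, with 964 to 1577 normalized counts with beta-glucan (median 1109) and 550.1 to 1141 in control (median 712), a log2 fold change of 0.62 ± 0.15 (edgeR adjusted p = 0.0158). Icosl, the costimulatory ligand of ICOS, fell, with 116 to 295 normalized counts with beta-glucan (median 221) and 202 to 632 in control (median 335), a log2 fold change of -0.76 ± 0.24 (edgeR adjusted p = 0.0459). The groups overlapped in both. Cd276, which encodes B7-H3, had a log2 fold change of 0.44 ± 0.15 and did not pass (edgeR adjusted p = 0.0687). It was called higher with TMM (0.63, edgeR adjusted p = 0.0104) and in DESeq2 (0.44, adjusted p = 0.0404). Neither Cd80, the closest relative of Cd86, nor Pdcd1lg2 was listed, and none of the 8 costimulators of the TNF family was, Cd40 included. Without controls 2 and 3 neither Cd274 (0.51, edgeR adjusted p = 0.0801) nor Icosl (-0.49, edgeR adjusted p = 0.283) passed.

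Inhibitory proteins of myeloid cells changed in both directions. Of 27 genes, 2 were listed higher and 7 lower, where 64.9% of all listed genes were lower. In edgeR 1 rose and 5 fell with the deposited size factors, where 4.14% of all tested genes rose and 6.85% fell. TMM factors gave 2 that rose (Cd24a and Lair1) and 3 that fell (Siglece, Cd300lf and Fcgr2b), where 1037 of the 17130 tested genes rose and 529 fell. Cd24a, a ligand of inhibitory Siglec receptors, rose, with 274 to 707 normalized counts with beta-glucan (median 549.8) and 81.04 to 367 in control (median 213), a log2 fold change of 1.17 ± 0.26 (edgeR adjusted p = 0.00785). The inhibitory Fc receptor gene Fcgr2b fell, with 2021 to 3605 normalized counts with beta-glucan (median 2621) and 3127 to 7153 in control (median 4979), a log2 fold change of -0.89 ± 0.17 (edgeR adjusted p = 0.00404). The inhibitory receptor gene Cd300lf also fell (-0.83 ± 0.17, edgeR adjusted p = 0.00561), with 305 to 711 normalized counts with beta-glucan and 595 to 1204 in control. The other falls were the sialic acid receptor Siglece (-1.02 ± 0.23, edgeR adjusted p = 0.00898), the paired receptor Pilra (-0.36 ± 0.10, edgeR adjusted p = 0.0329) and Lilrb4a (-1.15 ± 0.33, edgeR adjusted p = 0.0302), whose count is uncertain because Lilr4b is a near copy. Lair1, a collagen receptor, was at 0.31 ± 0.11 (edgeR adjusted p = 0.0728) and Clec4a2 at -0.48 ± 0.16 (edgeR adjusted p = 0.0504). Cd47 and Sirpa, another inhibitory ligand and receptor pair of macrophages, were not listed.

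Among 11 genes of MHC class II, 2 were listed, Cd74 and H2-Ob, where 6.30% of all tested genes were listed higher and 11.6% lower. None of the 3 genes known to control CD86 at the surface, the ubiquitin ligases March1 and March8 and Cd83, was listed. Of 11 class II genes, Cd74, the invariant chain, was at 362 ± 121 normalized counts with beta-glucan and 219 ± 106 in control (SD, n = 8 each) and did not pass (0.72 ± 0.26, edgeR adjusted p = 0.0738). It was called higher without controls 12 and 13 (1.10, edgeR adjusted p = 0.00139), without control 12 alone (0.95, edgeR adjusted p = 0.00710), with TMM (0.88, edgeR adjusted p = 0.0453) and in DESeq2 (0.73, adjusted p = 0.0377). H2-Ob was at 4.55 ± 5.12 with beta-glucan and 16.1 ± 6.59 in control. These are low counts, and H2-Ob was called lower with no filter and without controls 12 and 13.

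Of 15 genes of macrophage fusion and osteoclasts, a list drawn up with earlier results for Src and Atp6v0d2 in these data known, 4 were listed and all 4 rose. The count is thus no independent evidence of the direction. Of all tested genes 6.30% were listed higher and 11.6% lower, and 4.14% were called higher in edgeR. Src, a kinase needed for bone resorption, had 389 to 720 normalized counts with beta-glucan (median 511) and 53.8 to 234 in control (median 163), again without overlap, and a log2 fold change of 1.83 ± 0.24 (edgeR adjusted p = 0.000483). Itgb3 (0.80 ± 0.19, edgeR adjusted p = 0.0107), the integrin beta 3 subunit, and Cd44 (0.46 ± 0.10, edgeR adjusted p = 0.00803), a hyaluronan receptor, rose as well. The groups overlapped in both, and Itgb3 in control 5, at 1018 normalized counts, exceeded the beta-glucan median of 979. Atp6v0d2, a proton pump subunit needed for fusion, rose by 1.36 ± 0.41 (edgeR adjusted p = 0.0383). Its mean was 4529 ± 1183 normalized counts with beta-glucan and 1767 ± 1625 in control (SD, n = 8 each). The medians were 4257 with beta-glucan and 865 in control. Its groups overlapped through controls 12 and 13. Their counts, 3792 in control 12 and 4732 in control 13, exceeded the lowest beta-glucan value, 3229. The other 11, among them the fusion proteins Dcstamp and Ocstamp and the osteoclast enzymes Acp5 and Ctsk, were not listed.

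**Figure D5:**
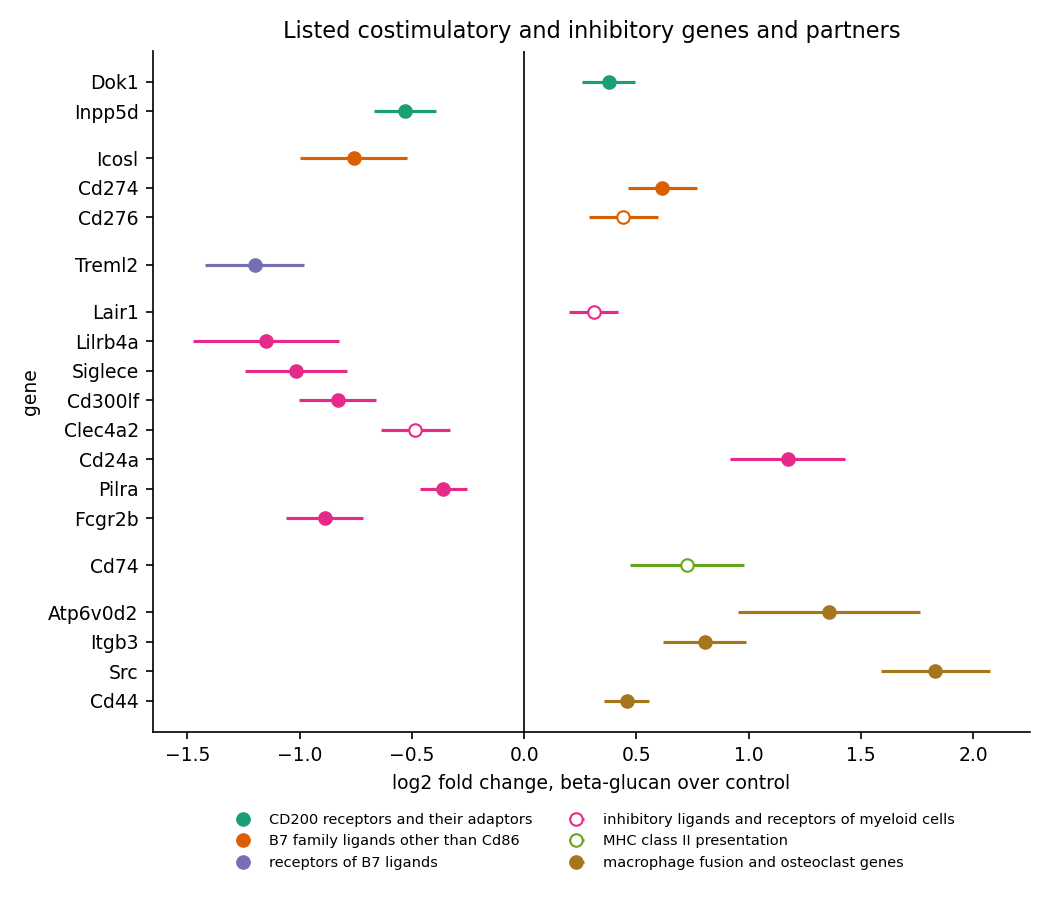
Log2 fold change, beta-glucan over control, with its SE (horizontal) for the 19 listed genes of the lists that passed the filter on low counts, coloured by list. Filled points passed an edgeR adjusted p of 0.05 and open points did not. Of the filled points 7 lie right of 0 and 8 left of it.

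Without controls 2 and 3, 7 of these 15 calls remained, namely Treml2, Cd300lf, Cd24a, Fcgr2b, Itgb3, Src and Cd44. With scaling by TMM, computed from the listed genes and moving the median of all fold changes up by 0.20, 10 genes rose and 4 fell, the calls of Inpp5d, Icosl, Lilrb4a and Pilra ended, and Cd276, Lair1 and Cd74 were called higher. DESeq2 kept all 15 calls and added these 3 as higher and Clec4a2 as lower. The calls of Dok1, Icosl, Pilra and Atp6v0d2 ended in 13, 11, 10 and 13 of the 16 fits that left out a single library, and that of Lilrb4a without control 5 or without beta-glucan 6, 8 or 12. Calls were also gained in such fits. Among them were Cd276 without control 10 or beta-glucan 13, Lair1 without control 13, and Clec4a2 without control 5 or 9 or without beta-glucan 10 or 13.

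Markers of the labelled cell type were abundant. Of 12 macrophage markers 6 were listed, with Csf1r at a mean of 506 FPKM with beta-glucan and 809 FPKM in control and Adgre1 at 373 FPKM with beta-glucan and 551 FPKM in control. Their summed level was 1555 to 1815 FPKM with beta-glucan and 1798 to 3066 FPKM in control, and in edgeR 1 rose (Cd14) and 3 fell (Adgre1, Csf1r and Mertk). Of all tested genes 4.14% rose and 6.85% fell in edgeR. Without controls 2 and 3 neither Cd14 (0.51, edgeR adjusted p = 0.0860) nor Mertk (-0.56, edgeR adjusted p = 0.0689) passed, and the call of Cd14 also ended without control 5 and without beta-glucan 7 or 8. Of the cell types that commonly carry CD200, B cells had 1 of 7 markers listed, Cd79b, at 0.588 FPKM with beta-glucan and 1.10 FPKM in control. Endothelium had 2 of 7, Kdr (0.653 FPKM with beta-glucan and 0.436 FPKM in control) and Vwf (8.08 FPKM with beta-glucan and 10.2 FPKM in control), with a summed level of 6.595 to 9.74 FPKM with beta-glucan and 8.24 to 14.4 FPKM in control. None of these 3 passed (edgeR adjusted p of 0.0610 for Cd79b, 0.103 for Kdr and 0.0748 for Vwf). No marker of T cells, stromal cells, dendritic cells or neutrophils was listed (0 of 7 in each list). Over all tested genes 6.30% were listed higher and 11.6% lower. Listing needs a difference between the groups, and a marker that is not listed may still be present. The counts of listed markers therefore do not show which cells were present. The part of such cells in the levels of Cd200 or Cd86 was not tested.

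The genes whose levels followed Cd200 and Cd86 most closely were found after centring each gene on its group mean, so that the difference between groups does not enter. The measure is Pearson's r over 16 libraries among 2377 other listed genes, which share the same libraries and size factors, and it is a description. For Cd200 the highest were Dio2 (r = 0.96), the deiodinase that activates thyroid hormone, Oit3 (0.89), Kctd17 (0.88), Ybx3 (0.87) and Il7r (0.82), the interleukin 7 receptor. These rest mostly on the controls, where Cd200 varied. Within controls r was 0.96 for Dio2 and 0.95 for Oit3, and within beta-glucan it was 0.53 for Dio2 and -0.76 for Oit3. The lowest were Mbtd1 (-0.83), Lgals8 (-0.82), Nfxl1 (-0.81), Txndc16 (-0.81) and Serinc3 (-0.80). The median over all genes was -0.16.

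For Cd86 the closest genes followed it in both groups. They were Nat8l (r = 0.96), the enzyme that makes N-acetylaspartate, the glycogen phosphorylase gene Pygl (0.91), Ppp1r21 (0.91), the transcription factor gene Tef (0.91) and catalase, Cat (0.90). For Nat8l r was 0.97 within beta-glucan and 0.96 within control. All 5 were listed lower, as were Cd86 and 64.9% of all listed genes. The lowest were the calcium-activated potassium channel gene Kcnn4 (-0.91), Lat2 (-0.87), Nkain1 (-0.86), the spermine synthase gene Sms (-0.85) and neuropeptide Y, Npy (-0.85), and all 5 were listed higher. The median over all genes was 0.09. Between Cd200 and Cd86 themselves r was -0.53.

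Genes next to the pair were looked up in the table. Distances were taken between lower coordinates, which for these 2 minus-strand genes mark the end away from the promoter. Within 500 kb of the lower coordinate of Cd200 GENCODE M21 holds 14 other protein-coding genes. Of these 1 was listed, Abhd10, a mitochondrial hydrolase, at a mean of 291 normalized counts with beta-glucan and 204 in control. The noncoding Gm15591 was listed too, at 1.12 with beta-glucan and 7.34 in control. The window around Cd86 holds 19 other protein-coding genes, of which 3 were listed, all lower: Slc15a2, a peptide transporter, at 10.2 normalized counts with beta-glucan and 42.6 in control, Golgb1, a Golgi matrix protein, at 1499 with beta-glucan and 2011 in control, and the DNA polymerase gene Polq at 65.8 with beta-glucan and 106 in control. A further listed transcript, AC154232.2, shares its lower coordinate with Golgb1, so their reads may not be told apart. Over all tested genes 6.30% were listed higher and 11.6% lower, and 64.9% of all listed genes were lower. Nothing is therefore read from the counts or directions in these windows.

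In the authors' deposited enrichment tables, Cd200 belonged to 67 of 7402 Gene Ontology terms and Cd86 to 76, and 5 terms held both. No term with either gene had an adjusted p under 0.05. The strongest with Cd200 by the authors' deposited table was the regulation of interleukin-6 production, with 9 genes higher and 27 lower (p = 0.00288, adjusted p = 0.236). The strongest with Cd86 was immune response-activating signal transduction, with 27 genes higher and 40 lower (p = 0.00101, adjusted p = 0.187), followed by activated T cell proliferation, with 3 higher and 12 lower (p = 0.00143, adjusted p = 0.187), again in the authors' deposited table. Of the terms with both genes, the negative regulation of cell activation came first in the authors' deposited table. It had 13 genes higher and 29 lower, and an adjusted p of 0.395. Of 306 KEGG pathways, 12 held Cd86 and none held Cd200.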

How the data were processed

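Per the labels' protocols, RNA came from an RNeasy kit and Novogene built the libraries. Tools named in the submitters' processing notes are CASAVA, DESeq2, HTSeq 0.6.1 and STAR 2.5, with mm10 as the build. Annotation release and strand setting: not given in the sources used here, which name no enrichment tool either. The deposited read counts are whole numbers per gene, not normalized. The deposited normalized counts, a signal, equal read counts divided by a size factor between 0.864 and 1.16 per library. The deposited FPKM values equal normalized counts per kilobase and per 17937135 reads. The authors' log2 fold changes are beta-glucan over control, and the authors' p-values, unadjusted and adjusted, place 17130 genes in their test. The table holds the 3071 with an adjusted p under 0.05, so tests on them are optimistic.

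edgeR 4.0.16 in R 4.3.3 (glmQLFit, glmQLFTest, filterByExpr, two-sided) was fitted over the whole table with the deposited size factors, and 2738 genes passed the filter. p was adjusted over 17130 genes. The step was tested on simulated data. Alternatives were other scalings, DESeq2 1.42.0, no filter, a replicate block and left-out libraries. Correlations used scipy 1.17.1 with a pseudocount of 1. The members, lists and tests were chosen with earlier results of these data known. Named genes were the listed members of the gene lists, the 5 most and 5 least alike genes per member with a mean normalized count of at least 50, listed genes within 500 kb, and up to 3 enrichment terms per kind. Of KEGG pathways only counts are given.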

Additional observations from a re-analysis of the deposited data

Results flagged for a closer look

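A gap rule for single libraries was applied to the normalized counts of Cd200, Cd86 and the listed genes of all lists and to the Cd200 to Cd86 ratio, in 66 groups of 8 libraries. It picked 5 values, where chance picks about 1 group in 20. None was a value of Cd200, Cd86 or their ratio. Lilrb4a was at 9433 normalized counts in control 5, with the next highest control at 5790.4. H2-Ob was at 16.3 in beta-glucan 6, with the next at 4.995. Itgb3 was at 1285 in beta-glucan 12, with the next at 1038. The B cell marker Cd79b was at 29.6 in beta-glucan 13, with the next at 15.7. The endothelial marker Kdr was low in control 2, at 30.1, with the next lowest control at 66.03, and control 2 also had the lowest Cd200, 9.26. The part of these values in the results was not tested.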

How the results depend on the processing

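Cd200 stayed higher and Cd86 lower under every setting run: other scalings, DESeq2, no filter, the replicate block and left-out libraries. Without 1 library the log2 fold change ranged from 2.31 to 2.72 for Cd200 and from -0.92 to -0.73 for Cd86, and the log2 ratio difference from 3.36 to 4.15. The count of changed genes, 1882 (709 higher, 1173 lower), ranged from 1150.0 to 2276 without 1 library and was 1150.0, 1220.0, 1223 and 1206 without control 2, control 3, control 5 and beta-glucan 8. It was 629 without controls 2 and 3, where 7 genes of the lists were called. With TMM 66.2% of calls were higher (1037 higher, 529 lower), against 37.7%. Calls in the lists ranged from 10 to 17 without 1 library. With the replicate block over the 6 shared numbers, 355 genes and 4 genes of the lists were called, and Cd200 was at 2.38 and Cd86 at -0.78. The same libraries without the block, a setting chosen after seeing the data, gave 68 genes and 1 gene of the lists. Without numbers 12 and 13 in both groups, also chosen after seeing the data, Cd200 was at 3.08 and Cd86 at -0.83. The numbers were not taken to pair the libraries: same-numbered deviations correlated between -0.15 and 0.54, over 0.1 in 3 of 6 pairs, and 1 of the 6 beta-glucan libraries correlated best with its own number. Yet beta-glucan 12 and control 13 were each other's best match, as were beta-glucan 13 and control 12. Libraries 12 and 13 thus resembled each other across the groups, and what they share was not tested. The correlation within controls ranged from -0.91 to -0.74 without 1 control, missed the threshold without control 2 (-0.74, exact permutation p = 0.0556) and without controls 12 and 13 (-0.69, exact permutation p = 0.129), and within beta-glucan ranged from 0.28 to 0.82, passing without library 12 (0.82, exact permutation p = 0.0272). The cause of these changes was not tested. Of 700 values of single list genes under an alternative, 104 lost and 42 gained a call, and none turned its direction. Depth limits Cd200 in control, where control 2 had 8 reads.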
